A study of Rattus norvegicus with 6 samples.

Results

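The Arp2/3 complex and its partners in actin assembly were examined as a set of 10 genes: the complex genes Arpc1a, Arpc1b, Arpc2, Arpc3, Arpc4, Arpc5, Actr2 and Actr3, the cofilin gene Cfl1 and the profilin gene Pfn1. A member counted as measured when at least 1 probe set of the array was annotated to it alone. This held for 8 of the 10 genes, through 11 probe sets, out of 14217 genes tested in all. Actr3 and Cfl1 were read only by probe sets that the annotation also gives to a second gene, and their values are given apart. Where a gene had several probe sets, its main value comes from the one that was brightest on average over the 6 arrays, and the others are given beside it.

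The cells were NRK-52E, an established line of rat renal tubular epithelium, kept in high-glucose medium with serum. For 3 arrays the cells had been infected with a lentivirus whose short hairpin RNA targets AMPKα2 (shAMPKα2), one of the catalytic subunits of the energy-sensing kinase AMPK, and for the other 3 with a control lentivirus (shCtrl). Every culture also received recombinant TGF-β1, a cytokine that pushes epithelial cells to become mesenchymal, at a dose of 10 ng/mL for 24 h, so both groups share that treatment and cells without it were not analysed here. The labels call the arrays of a group biological replicates and do not say whether the infected cells were pooled or cloned.

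The Arp2/3 complex starts a new actin filament as a branch on the side of an existing one. Its actin-related proteins, encoded by Actr2 and Actr3, mimic the first units of the new filament, while the Arpc subunits hold them together and anchor them to the mother filament. The complex is idle until a nucleation promoting factor of the WASP or WAVE family binds it together with an actin monomer. Profilin delivers monomers to growing filament ends and cofilin severs old filaments, so these proteins set the supply on which branching draws. In epithelial cells branched actin underlies lamellipodia, endocytosis and the upkeep of cell junctions.

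Values are log2 expression as deposited, and a change is the mean of the shAMPKα2 arrays minus the mean of the shCtrl arrays. The mean on the shCtrl arrays is called the control level, and a gene passed the test at an adjusted p under 0.05. The values had a narrower range in shAMPKα2 cells: their SD over probe sets was 1.76 to 1.82 on the shAMPKα2 arrays and 2.17 to 2.19 on the shCtrl arrays. Changes followed the level, with a median of 0.81 for genes at control levels of 5 to 6 and -0.90 at 9 to 10. Prkaa2, the targeted gene, stood at 6.64, 6.76 and 6.49 on the shAMPKα2 arrays and at 6.83, 6.79 and 6.89 on the shCtrl arrays, a change of -0.21 that did not pass (limma, adjusted p = 0.0552), so the group names rest on the labels. Its groups did not overlap, and its change depended on the scaling: -0.42 on median-centred values passed, while -0.05 and -0.15 on quantile- and loess-normalized values did not. The log2 difference between the 3' and 5' probe sets of GAPDH was -0.16 ± 0.03 in shAMPKα2 cells and -0.01 ± 0.03 in shCtrl cells, and that of beta-actin was 0.45 ± 0.05 in shAMPKα2 cells and 0.42 ± 0.05 in shCtrl cells (SD, n = 3 each). Of 11 measured tubule epithelium markers, 1, Krt8, lay above the median level of all genes on the shCtrl arrays, while Cdh1 and Epcam were low there, at 4.31 and 2.97. The summed log2 level of these markers was 66.5 to 67.3 in shAMPKα2 cells and 60.4 to 61.1 in shCtrl cells. On shAMPKα2 arrays the sum was 48.8 to 49.7 for 6 fibroblast markers, 14.24 to 15.03 for 3 endothelial markers and 22.1 to 22.9 for 4 immune markers. On shCtrl arrays these sums were 40.6 to 40.8, 12.36 to 13.35 and 18.5 to 18.8. The endothelial and immune markers lay at low control levels, from 2.96 for Pecam1 to 5.57 for Cd68. All genes at control levels below 4, of 4 to 5 and of 5 to 6 rose by 0.52, 0.79 and 0.81 at the median. Members of a sum went both ways: of the fibroblast markers, Col1a1 and Col1a2 rose by 2.98 and 2.95 and Vim, the most abundant, changed by -0.38, and of the tubule markers Krt8 changed by -0.25. The part of these differences in the results below was not tested.

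Transcripts of the complex did not move together. Arpc3 and Arpc1a rose several-fold in shAMPKα2 cells, Actr2, Arpc5, Arpc2, Arpc1b and Pfn1 fell by less, and Arpc4 did not pass the test. Of the 8 measured members, 2 were higher, where 43.6% of all genes were higher, and 5 were lower, where 41.5% of all genes were lower (limma, adjusted p under 0.05). Across the 8 the median change was -0.74, against 0.05 over all genes tested. Most members are abundant transcripts, and the 1279 genes with a control level of 10 or above also had a median change of -0.74, with 76.2% of them lower and 7.97% higher. Groups did not overlap in 7 of the 8 members, as in 87.1% of all genes, and the 7 that passed compare with 85.1% of all genes that passed in either direction.

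These counts depended on how the arrays were scaled. On quantile-normalized values 3 members rose and 5 fell, where 43.8% of all genes rose and 28.9% fell. On values normalized by cyclic loess 3 rose and 4 fell, where 40.2% of all genes rose and 31.5% fell. With each array centred on its median 2 rose and 6 fell, where 35.0% rose and 48.2% fell. Arpc3 and Arpc1a rose in all 4 scalings, as 25.5% of all genes did, and Actr2, Arpc5, Arpc2 and Pfn1 fell in all 4, as 26.4% did. The members' median change was -0.40 on quantile-normalized values, -0.24 on loess-normalized values and -0.95 on median-centred values, where that of all genes was 0.16, 0.09 and -0.17.

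**Figure D1:**
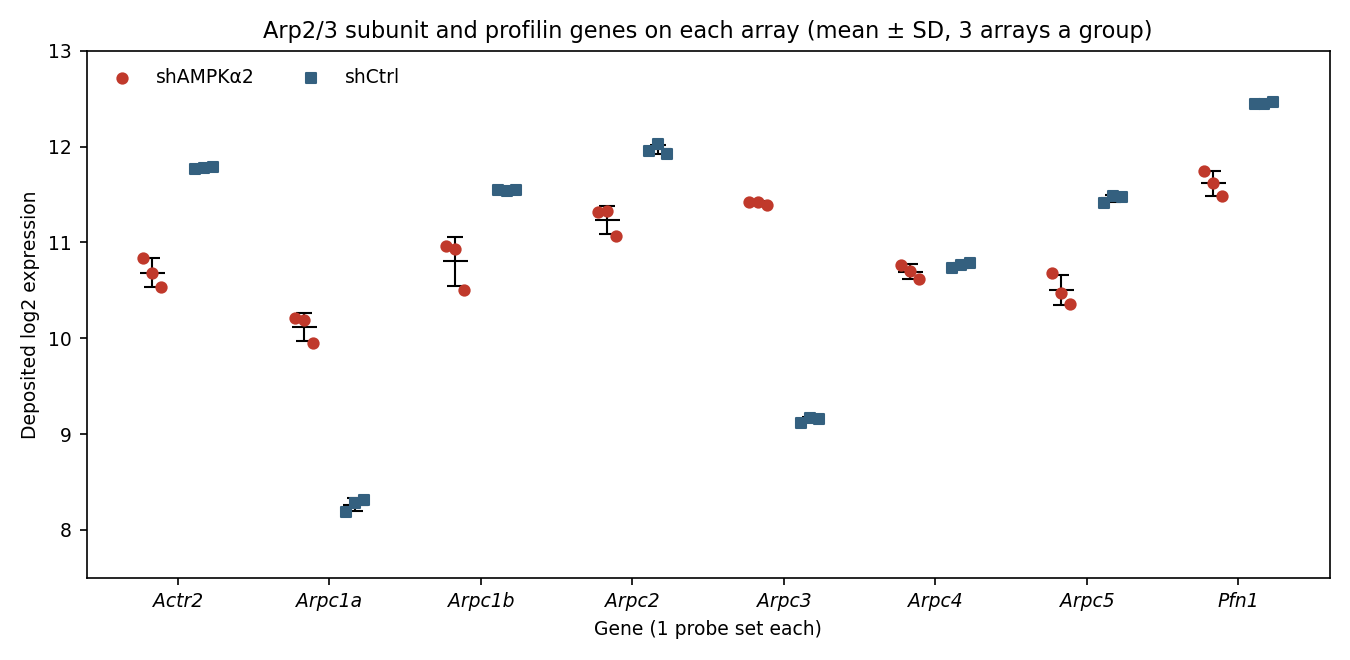
Deposited log2 expression (vertical axis) of the 8 measured genes on each array, shAMPKα2 arrays as circles left of the shCtrl arrays as squares, with the mean and SD of 3 arrays in black. Arpc3 and Arpc1a lie higher on every shAMPKα2 array, Arpc4 overlaps between the groups, and the other 5 genes lie lower.

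Arpc3 encodes a small subunit at the edge of the complex, next to the actin-related protein Arp3. It read 11.43, 11.42 and 11.39 on the shAMPKα2 arrays and 9.12, 9.17 and 9.15 on the shCtrl arrays. All 3 shAMPKα2 arrays lay more than 2 log2 units above all shCtrl arrays, with little spread in either group. The change was 2.27 (95% interval 2.09 to 2.44, a 4.81-fold rise; limma, adjusted p = 3.10e-09). Only 5 of the 14217 genes had a larger rise, and Arpc3 ranked 6th.

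Arpc1a encodes one of a pair of alternative forms of the subunit that meets the nucleation promoting factors. Its values were 10.22, 10.19 and 9.95 on the shAMPKα2 arrays, against 8.19, 8.28 and 8.32 on the shCtrl arrays. The groups were again well apart, with the third shAMPKα2 array the lowest of its group. Arpc1a rose by 1.86 (95% interval 1.65 to 2.07, 3.62-fold; limma, adjusted p = 3.31e-08), which ranked 19th among the rises of all genes.

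Both rises ran against the genes of their own level. Genes of like control level are here all genes tested whose mean on the shCtrl arrays lay within 0.5 log2 units of the member's. For Arpc3 there were 1887 such genes, with a median change of -0.89 and quartiles of -1.43 and -0.42, and 5.41% of them passed as higher. None of the 1887 rose by as much as Arpc3. For Arpc1a there were 2209, with a median of -0.67, 10.4% of them higher, and again 0 that rose by as much. With the level taken as the mean over all 6 arrays, 0 of 676 genes rose by as much as Arpc3 and 2 of 1493 by as much as Arpc1a. This is a description of the deposited values, without a test.

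Each of the rising genes has 1 probe set, so neither could be read a second time on these arrays, and whether those probe sets also bind other transcripts was not tested. Both rises were larger once the arrays had been given like distributions by quantile or cyclic loess normalization. Arpc3 changed by 2.79 on quantile-normalized values and by 2.90 on loess-normalized ones, and Arpc1a by 2.46 and 2.58. On median-centred values the changes were 2.05 and 1.64. Of the 8 members these 2 passed with at least a 2-fold change in the same direction in all 4 scalings, as 2.26% of all genes did upwards.

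**Figure D2:**
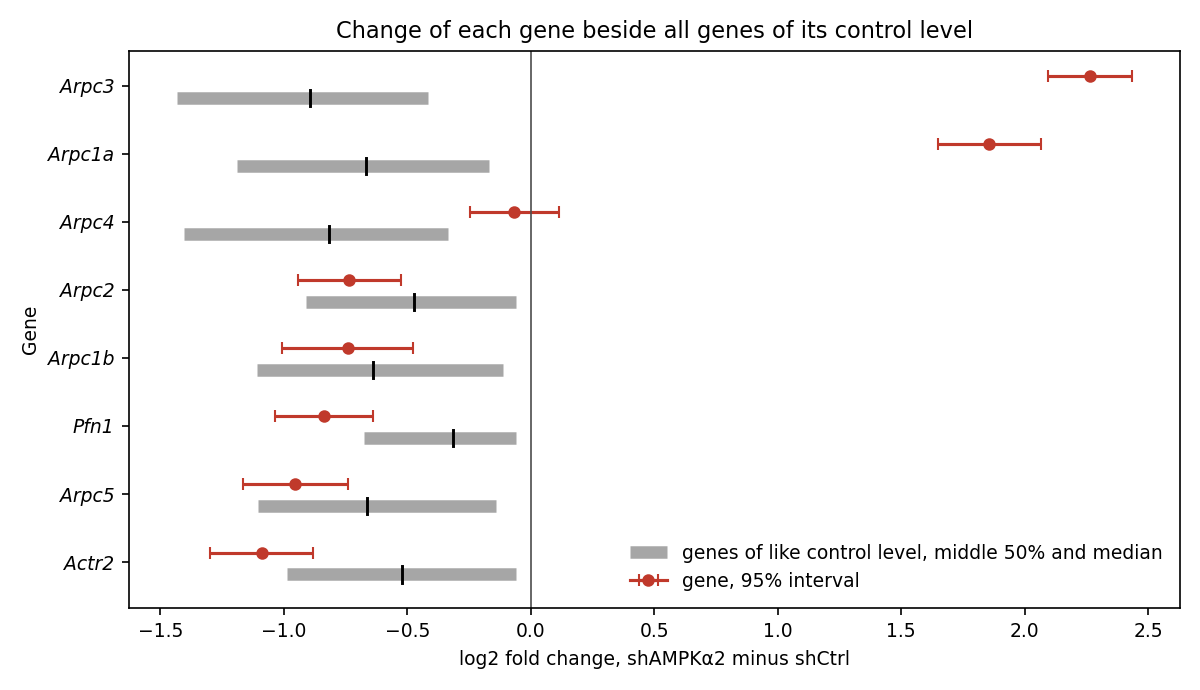
Change of each gene on the log2 scale (points, with 95% intervals) above the middle 50% (grey bar) and median (black tick) of all genes of like control level. Arpc3 and Arpc1a, at 2.27 and 1.86, lie far right of their bars, Arpc4 lies right of its bar and Actr2 and Pfn1 lie left of theirs.

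Arpc1b encodes the other form of the same subunit position. It read 10.96, 10.94 and 10.51 on the shAMPKα2 arrays and 11.55, 11.54 and 11.55 on the shCtrl arrays. Every shAMPKα2 array was lower than every shCtrl array, and the third was the lowest. The change was -0.74 (95% interval -1.01 to -0.48; limma, adjusted p = 0.000146). Genes of its control level had a median of -0.64, and 146 of 323 fell by at least as much. With the level taken over all 6 arrays, 97 of 297 did so. Its change of -0.21 on loess-normalized values did not pass (limma, adjusted p = 0.0544).

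The pair thus changed unequally. The log2 ratio of Arpc1b over Arpc1a signal within an array was 0.75, 0.75 and 0.55 in shAMPKα2 cells and 3.36, 3.26 and 3.23 in shCtrl cells. Its mean was 0.68 ± 0.11 in shAMPKα2 cells and 3.28 ± 0.07 in shCtrl cells (SD, n = 3 each). The difference of -2.60 gave a p of 0.1 in a two-sided exact permutation test, which is the smallest value that 3 arrays against 3 allow. The ratio's difference was -2.78 on quantile-normalized values and -2.79 on loess-normalized values. In the RefSeq annotation of rat (GRCr8) Arpc1b and Arpc1a are direct neighbours on chromosome 12, with 0 protein-coding genes between them, and Arpc3 lies on the same chromosome, 370 protein-coding genes away.

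Actr2, which encodes the actin-related protein Arp2, fell the most among the measured members. Its main probe set read 10.84, 10.68 and 10.53 on the shAMPKα2 arrays and 11.77, 11.78 and 11.78 on the shCtrl arrays. The shCtrl arrays were almost level and all shAMPKα2 arrays lay about 1 log2 unit below them. The change was -1.09 (95% interval -1.30 to -0.88, 2.13-fold lower; limma, adjusted p = 1.24e-06). Its other probe sets of its own changed by -1.58 and -1.13, and both passed. A dimmer one that is also annotated to the pseudogene Actr2-ps1 changed by -0.57 from a control level of 5.26, where probe sets of like level had a median of 0.65.

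Arpc5 encodes the subunit that tethers Arp2 to the rest of the complex. It stood at 10.68, 10.47 and 10.36 on the shAMPKα2 arrays and 11.41, 11.49 and 11.48 on the shCtrl arrays. Its change of -0.95 (95% interval -1.17 to -0.74, 1.94-fold lower; limma, adjusted p = 4.08e-06) was the second largest fall of the set as deposited, while on quantile- and loess-normalized values Pfn1 held that place. Arpc2 encodes a core subunit that contacts the mother filament. It had 11.31, 11.33 and 11.07 on the shAMPKα2 arrays and 11.96, 12.03 and 11.93 on the shCtrl arrays. Its change was -0.74 (95% interval -0.94 to -0.53, 1.67-fold lower; limma, adjusted p = 2.55e-05), and a dimmer probe set of Arpc2 changed by -1.06. The groups did not overlap in any of these probe sets.

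Of these falls, that of Actr2 lay below the lower quartile of genes of like control level, -0.99, while those of Arpc5 and Arpc2 lay between the quartiles of theirs. Among genes of like control level, 52 of 221 fell by at least as much as Actr2, 108 of 337 by as much as Arpc5 and 69 of 180 by as much as Arpc2. With the level taken over all 6 arrays the counts were 35 of 282, 77 of 353 and 43 of 194. The falls kept their direction and passed in all 4 scalings. They were -0.71 for Actr2, -0.47 for Arpc5 and -0.48 for Arpc2 on quantile-normalized values, and -0.57, -0.40 and -0.27 on loess-normalized values.

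Arpc4 encodes the partner of Arpc2 in the core of the complex. It read 10.77, 10.70 and 10.62 on the shAMPKα2 arrays and 10.73, 10.76 and 10.79 on the shCtrl arrays, and these ranges overlap. Its change of -0.07 (95% interval -0.25 to 0.11) did not pass (limma, adjusted p = 0.455). Genes of its control level had a median change of -0.82, and 573 of 665 fell by at least as much as Arpc4. The call depended on the scaling: Arpc4 was higher by 0.46 on quantile-normalized values and by 0.51 on loess-normalized values, and lower, at -0.28, on median-centred values, and all these changes passed.

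**Figure D3:**
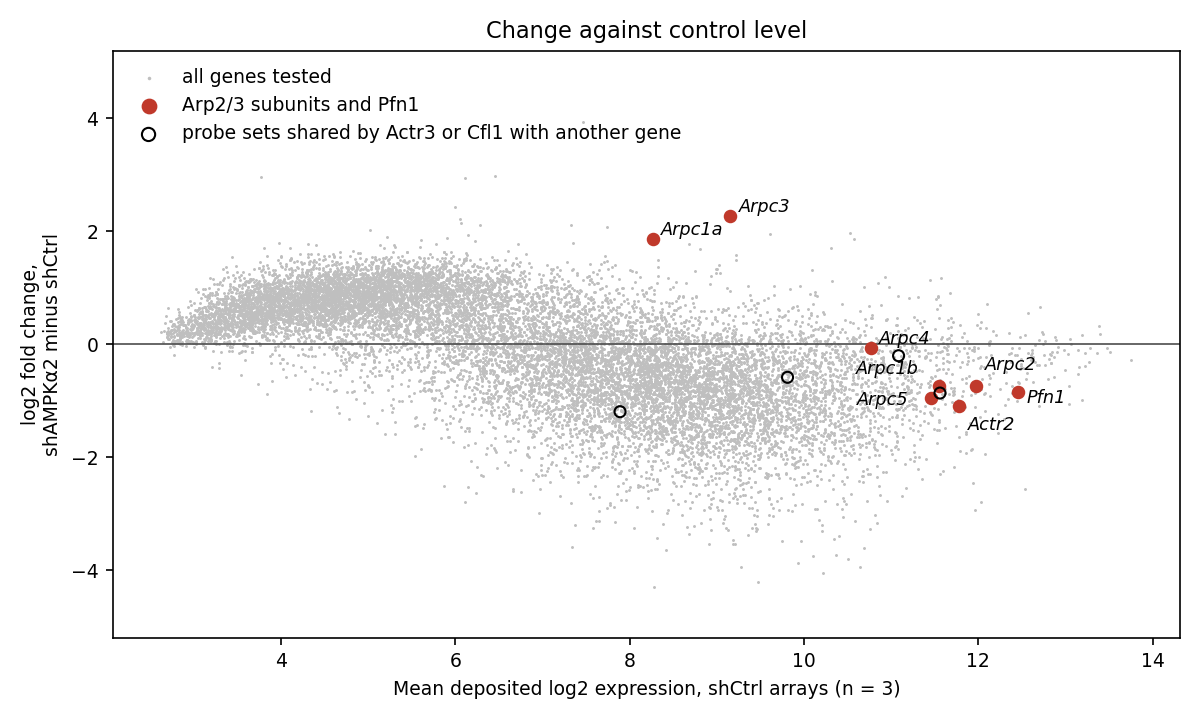
Change (vertical axis, log2) against the mean deposited log2 expression on the shCtrl arrays for all 14217 genes (grey), the 8 measured members (red) and probe sets that Actr3 or Cfl1 share with another gene (open circles). Arpc3 and Arpc1a stand above the cloud at control levels of 9.15 and 8.26, while the other members lie within it.

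Actr3, the gene of Arp3, was read by 3 probe sets that are also annotated to its paralog Actr3b, so the signal cannot be assigned to either gene. The brightest read 10.77, 10.79 and 10.54 on the shAMPKα2 arrays and 11.57, 11.56 and 11.54 on the shCtrl arrays. It changed by -0.86 (limma over 31042 probe sets, adjusted p = 8.28e-06), and the other 2 changed by -1.19 and -0.58 and passed too. Probe sets of like control level had medians of -0.64, -0.65 and -0.96, so the third fell by less than its level. Of all probe sets 34.1% passed as lower. All 3 had groups that did not overlap, with the shAMPKα2 arrays lower, as in 35.1% of all probe sets. On quantile- and loess-normalized values the third probe set changed by 0.16 and 0.12, which did not pass, while the brightest stayed lower at -0.43 and -0.33. The single probe set of Actr3b alone was dim, at 4.0, 4.18 and 4.0 in shAMPKα2 cells and 3.63, 3.50 and 3.46 in shCtrl cells. Its rise of 0.53 (limma, adjusted p = 0.00025) was that of genes of its level, whose median was 0.57, and its changes of 0.15 and 0.13 on quantile- and loess-normalized values did not pass.

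Pfn1, the profilin gene, read 11.75, 11.62 and 11.48 on the shAMPKα2 arrays and 12.45, 12.44 and 12.47 on the shCtrl arrays. The highest shAMPKα2 array lay well below the lowest shCtrl array. Its change was -0.84 (95% interval -1.04 to -0.64, 1.79-fold lower; limma, adjusted p = 6.50e-06). Of 102 genes of like control level 19 fell by at least as much, and 11 of 123 with the level taken over all 6 arrays. The fall was -0.61 on quantile-normalized values and -0.43 on loess-normalized values, and passed in both.

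Cfl1, the gene of the filament-severing protein cofilin, was read by 1 probe set that is also annotated to the related locus Cfl1l1. It had 10.96, 10.79 and 10.89 on the shAMPKα2 arrays and 11.16, 11.08 and 11.01 on the shCtrl arrays. The shAMPKα2 arrays lay just below the shCtrl arrays, and the change of -0.20 did not pass (limma over all probe sets, adjusted p = 0.0584). Probe sets of like control level had a median change of -0.76. Its changes of 0.29 on quantile-normalized values and 0.35 on loess-normalized values passed as higher, and -0.42 on median-centred values passed as lower.

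The third shAMPKα2 array was the lowest of its group in all 8 measured members. Over genes with a control level of 10 or above this was so in 82.9%, and over all genes in 46.8%. Without that array the counts of 2 members higher and 5 lower were the same. Arpc3 then changed by 2.28, Arpc1a by 1.94, Actr2 by -1.01 and Arpc1b by -0.59, and each passed. The spread of a gene was wider in shAMPKα2 cells in 7 of the 8 members, as it was in the typical gene, whose SD was 0.132 in shAMPKα2 cells and 0.0718 in shCtrl cells.

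**Figure D4:**
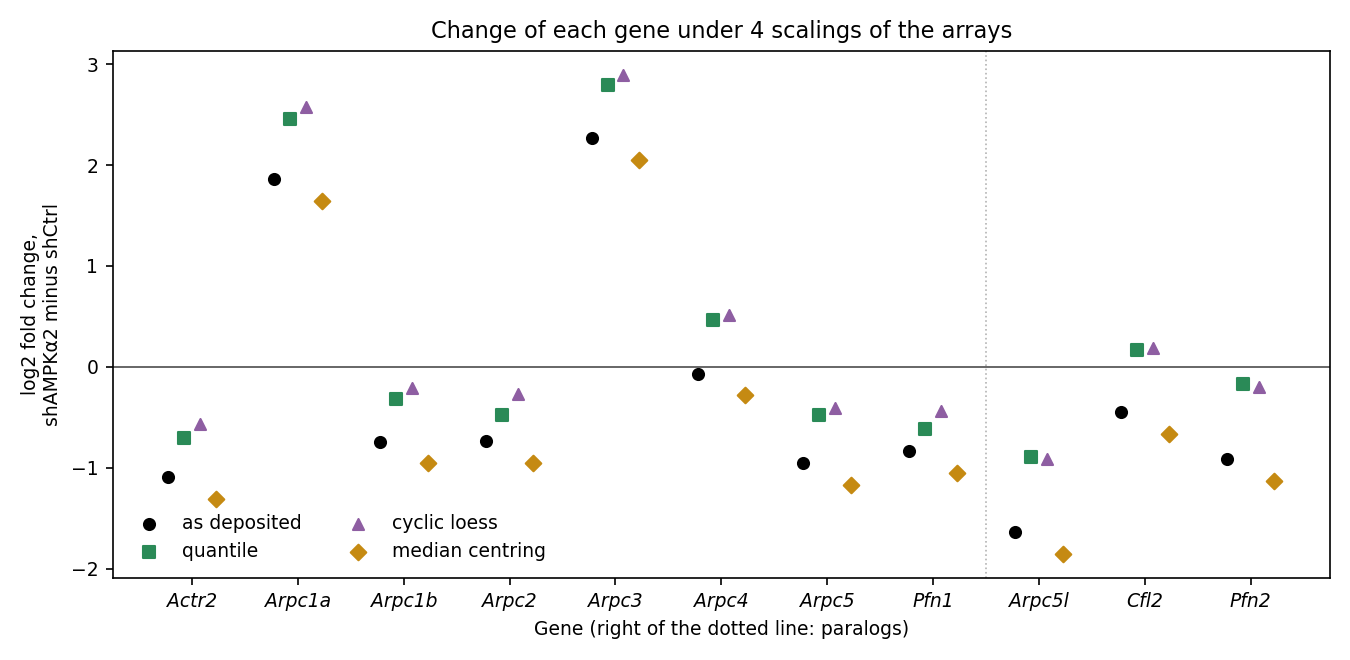
Change of each member and of 3 paralogs (right of the dotted line) on the log2 scale from deposited, quantile-normalized, loess-normalized and median-centred values. Arpc3 and Arpc1a stay above 1.6, and Arpc4 and Cfl2 lie on both sides of 0. The other genes, Actr2, Arpc1b, Arpc2, Arpc5, Pfn1, Arpc5l and Pfn2, stay below 0.

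The proximal promoters of the members are shown for the rising Arpc3, the falling Actr2, and Arpc1b, to set a gene that rose beside genes that fell. RefSeq windows of 300 bases on GRCr8, in which base 251 is the annotated start, were matched for 9 of the 10 genes. Arpc1a, which also rose, had no window, so Arpc3 is the only strongly rising gene in this comparison. The window of Arpc3 is chr12:39847387-39847686, that of Actr2 is chr14:98535043-98535342 and that of Arpc1b is chr12:14609439-14609738, all on the minus strand. Capitals mark the GC box GGGCGG and the CCAAT motif on either strand.
Arpc3: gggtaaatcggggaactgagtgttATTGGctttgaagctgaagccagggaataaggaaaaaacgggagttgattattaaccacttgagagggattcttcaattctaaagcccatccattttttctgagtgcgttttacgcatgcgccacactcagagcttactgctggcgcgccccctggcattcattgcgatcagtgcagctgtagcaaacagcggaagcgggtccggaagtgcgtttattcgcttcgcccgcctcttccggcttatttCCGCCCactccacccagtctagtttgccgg
Actr2: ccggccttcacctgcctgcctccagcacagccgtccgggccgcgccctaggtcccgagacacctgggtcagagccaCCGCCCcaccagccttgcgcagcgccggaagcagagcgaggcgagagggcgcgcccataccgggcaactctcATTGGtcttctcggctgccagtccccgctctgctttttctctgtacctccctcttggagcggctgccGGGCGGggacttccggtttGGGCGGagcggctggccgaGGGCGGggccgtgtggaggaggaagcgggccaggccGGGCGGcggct
Arpc1b: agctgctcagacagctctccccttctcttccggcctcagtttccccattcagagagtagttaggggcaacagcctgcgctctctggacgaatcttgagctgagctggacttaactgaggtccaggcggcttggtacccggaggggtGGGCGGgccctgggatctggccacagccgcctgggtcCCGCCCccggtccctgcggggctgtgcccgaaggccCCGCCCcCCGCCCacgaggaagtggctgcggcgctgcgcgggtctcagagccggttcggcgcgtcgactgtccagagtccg

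The Arpc3 window holds 1 GC box and 1 CCAAT motif, that of Actr2 holds 5 and 1, and that of Arpc1b holds 4 and 0. GC boxes, the letters bound by SP factors, were found in 8 of the 9 windows, against 33.1% of all 33469 windows of this length. CCAAT, the letters read by NF-Y, was found in 3 of 9, against 37.5%. The CArG box of serum response factor was found in 0 of 9, against 1.64%. With 51.7% G and C, Arpc3 had the lowest share of the 9 windows, which had a median of 68.0% and a highest value of 74.7% in Arpc5, while the median of all windows was 51.7%. These matches describe letters only.

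Of 4 paralogs of members with a probe set of their own, 3 fell and Actr3b rose on deposited values. Of all genes 41.5% fell and 43.6% rose. Among genes of like control level, 81.6% for Arpc5l, 80.5% for Cfl2 and 81.8% for Pfn2 passed as lower. For Actr3b 87.1% of such genes passed as higher. Arpc5l, the alternative to Arpc5, read 8.42, 8.49 and 8.09 on the shAMPKα2 arrays and 9.97, 10.01 and 9.94 on the shCtrl arrays. It fell by 1.64 on the log2 scale (95% interval -1.88 to -1.40; limma, adjusted p = 1.85e-07), the largest fall among the members and paralogs on their main probe sets, and it passed as lower in all 4 scalings. Of 1215 genes of its control level, 216 fell by at least as much. A dimmer probe set of Arpc5l, at a control level of 4.95, changed by 0.39.

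Pfn2, the second profilin gene, changed by -0.91 (limma, adjusted p = 2.04e-06), almost exactly the median of genes of its level, -0.91. Its change was -0.17 on quantile-normalized values, which did not pass, and -0.20 on loess-normalized values, which did. A dimmer probe set of Pfn2 changed by -0.73 and passed. Cfl2, the muscle-type cofilin gene, changed by -0.45 (limma, adjusted p = 0.000259) on its brightest probe set and by -2.13 on the other. The brighter one turned to 0.16 on quantile-normalized values, which did not pass, and to 0.19 on loess-normalized values, which did. The depolymerizing factor gene Dstn shares both its probe sets with Dstnl1, and they changed by 0.00 and 0.27.

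Activators of the complex differed widely among themselves. Of 29 measured genes of the WASP, WAVE and WASH families and their partners, 7 rose, 18 fell and 4 did not pass, where 43.6% of all genes rose and 41.5% fell. The list's median was -0.81, and the median of the like-level medians of its genes was -0.68. On quantile-normalized values 12 rose and 15 fell, where 43.8% of all genes rose and 28.9% fell. On loess-normalized values 11 rose and 16 fell, where 40.2% of all genes rose and 31.5% fell.

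Wasf2, which encodes the WAVE2 protein that activates the complex at lamellipodia, read 4.84, 5.02 and 4.23 on the shAMPKα2 arrays and 7.57, 7.67 and 7.73 on the shCtrl arrays. Its change of -2.96 (95% interval -3.33 to -2.58; limma, adjusted p = 6.80e-08) was the largest in any of the lists. It was -2.95 on quantile-normalized values and -3.22 on loess-normalized values. Wasf2 was read by 1 probe set only, with a wide spread on the shAMPKα2 arrays (SD 0.41). Abi2, an adaptor of the WAVE complex, had 7.37, 7.21 and 7.09 in shAMPKα2 cells and 9.32, 9.38 and 9.30 in shCtrl cells, a change of -2.11 (limma, adjusted p = 1.18e-08). Wipf1, which encodes a protein that stabilizes WASP family members, changed by -1.88 and -2.60 on its 2 probe sets.

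Among the activators that rose, Abi3, another WAVE adaptor, had 6.83, 6.53 and 6.81 on the shAMPKα2 arrays and 5.56, 5.61 and 5.56 on the shCtrl arrays, a rise of 1.15 (limma, adjusted p = 1.09e-06). Genes at control levels of 5 to 6, where Abi3 lies, changed by 0.81 at the median, with an upper quartile of 1.08. Hcls1, a relative of cortactin best known from blood cells, rose by 0.78, or by 1.31 on loess-normalized values. Cyfip2, a WAVE complex scaffold, rose by 0.90 on its main probe set, while its other probe set changed by 0.05 and did not pass. Rac1 and Cdc42, the small GTPases upstream of WAVE and WASP, were looked up for their role after values had been seen. They changed by -0.33 and -0.98, and Rac1 turned to 0.22 on quantile-normalized and 0.27 on loess-normalized values, with all these changes passing. Cdc42 changed by -0.55 and -0.44 on those values. At control levels of 10 to 11, where Rac1 lies, genes changed by -0.84 at the median, and by -0.66 at 11 to 12, where Cdc42 lies. Rac1 has 2 probe sets and Cdc42 3, of which only the main ones are given.

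Of 10 inhibitors of the complex and proteins that remove branches, 3 rose, 6 fell and 1 missed the threshold, where 43.6% of all genes rose and 41.5% fell. Their median was -0.59 and that of their like-level medians -0.50. On quantile-normalized values 3 rose, 2 fell and 5 missed it, and the median was 0.06. Of all genes 43.8% rose and 28.9% fell on these values. On loess-normalized values 2 rose, 2 fell and 6 missed it, and the median was -0.07. There 40.2% of all genes rose and 31.5% fell. Gmfb, which encodes a debranching factor, had 9.17, 8.98 and 8.98 on the shAMPKα2 arrays and 10.77, 10.87 and 10.77 on the shCtrl arrays, a change of -1.76 that was -1.09 on loess-normalized values. Its other 3 probe sets did not share a direction and changed by 0.40, -1.0 and 0.56, all of which passed. Coro7, a coronin gene, changed by -1.0. Coro2a, another coronin gene, rose by 0.95 and by 0.77 on its 2 probe sets, whose control levels were 5.79 and 4.50. Genes at control levels of 5 to 6 and 4 to 5 changed by 0.81 and 0.79 at the median.

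Of 20 measured genes of other nucleators and of filament elongators, 7 rose, 11 fell and 2 did not pass, where 43.6% of all genes rose and 41.5% fell. Their median was -0.45, near the median of -0.51 of their like-level medians. On quantile-normalized values 5 rose and 9 fell and the median was -0.15, where 43.8% of all genes rose and 28.9% fell. On loess-normalized values 4 rose and 10 fell and the median was -0.21, where 40.2% of all genes rose and 31.5% fell. The formin genes Fmnl2 and Diaph3 changed by -2.08 and -1.73 (the second by -1.12 on loess-normalized values), and Spire1, a nucleator at vesicles, by -2.51. The other probe sets of Spire1 changed by -0.87, 0.73 and -0.40. Daam2, a formin gene, and Lmod2, a muscle nucleator gene with a control level of 4.24, rose by 0.96 and 0.87. The rise of Lmod2 was 0.30 on loess-normalized values, and genes at control levels of 4 to 5 changed by 0.79 at the median. Cobl, the cordon-bleu nucleator gene, rose by 1.0 on its main probe set but changed by -1.97 on the other, so its direction was not settled.

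**Figure D5:**
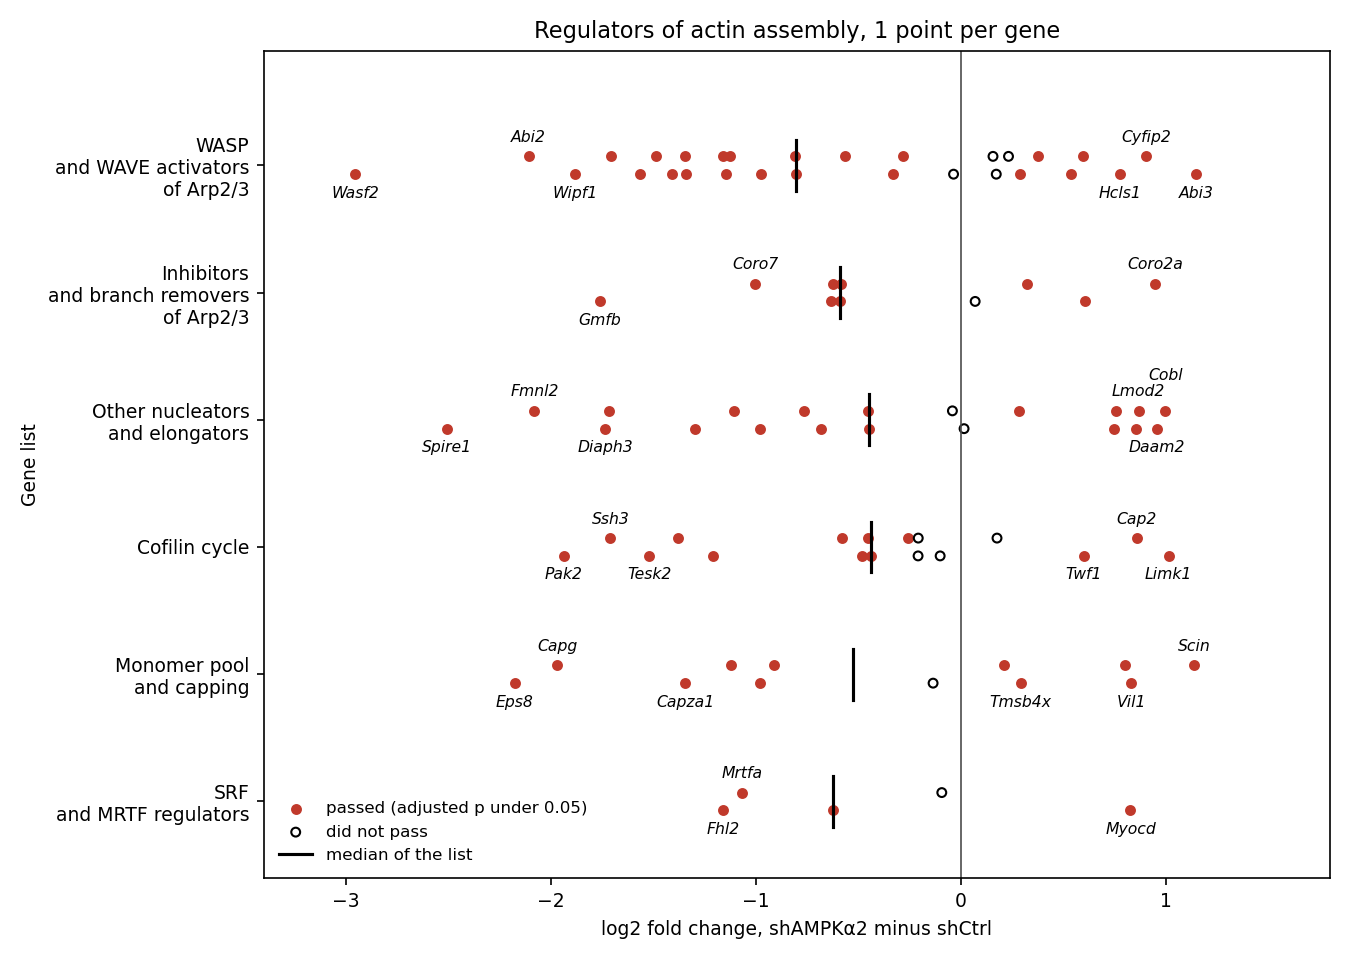
Change on the log2 scale of the 93 measured genes of 6 lists of actin regulators, 1 point per gene, filled where the gene passed and open where it did not, with the median of each list as a black line. Medians lie between -0.81 and -0.44, and Wasf2 at -2.96 is the lowest point.

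Of 17 genes of the cofilin cycle, 3 rose, 10 fell and 4 did not pass, where 43.6% of all genes rose and 41.5% fell. The list's median was -0.44, above the median of -0.76 of its like-level medians. The counts depended on the scaling, as those of all genes did. On quantile-normalized values 7 rose and 5 fell and the median was 0.16, where 43.8% of all genes rose and 28.9% fell. On loess-normalized values 8 rose and 5 fell and the median was 0.18, where 40.2% of all genes rose and 31.5% fell. Limk1, the kinase gene whose product inactivates cofilin, read 6.16, 6.07 and 6.37 on the shAMPKα2 arrays and 5.07, 5.23 and 5.26 on the shCtrl arrays, a rise of 1.01 (limma, adjusted p = 3.59e-06) that was 0.52 on loess-normalized values. Genes at control levels of 5 to 6, where Limk1 lies, changed by 0.81 at the median, with an upper quartile of 1.08. Ssh3, a gene of the slingshot phosphatases that act on cofilin, and Tesk2, another cofilin kinase gene, changed by -1.71 and -1.52. Pak2, which encodes a kinase upstream of LIM kinase, changed by -1.94, or -1.25 on loess-normalized values, and its other 3 probe sets were lower too. Twf1 and Cap2, whose products bind actin monomers, rose by 0.60 and 0.86, which were 1.31 and 0.36 on loess-normalized values. Cap2, at a control level of 5.24, rose about as much as the median gene at 5 to 6, 0.81.

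Of 12 genes of the monomer pool and of filament capping, 5 rose, 6 fell and 1 did not pass, near the shares of all genes, of which 43.6% rose and 41.5% fell. The list's median was -0.52, where that of its like-level medians was -0.66, and it was -0.15 on quantile-normalized and -0.10 on loess-normalized values. Capg, which caps filament ends, read 8.89, 9.01 and 8.66 on the shAMPKα2 arrays and 10.89, 10.79 and 10.77 on the shCtrl arrays, a change of -1.97 (limma, adjusted p = 3.49e-08) that was -1.29 on loess-normalized values. Eps8, a capping and bundling protein gene, and Capza1, a subunit of capping protein, changed by -2.18 and -1.34. The change of Capza1 was -0.67 on loess-normalized values. At control levels of 10 to 11, where Capg and Capza1 lie, genes changed by -0.84 at the median, with a lower quartile of -1.45. At 7 to 8, where Eps8 lies, the median was -0.39 and the lower quartile -0.95. Other probe sets of Eps8 changed by -0.84, which passed, and by -0.08, at a control level of 5.92, which did not. Tmsb4x, which encodes the monomer-sequestering thymosin β4, rose by 0.29, though its change of 0.08 on median-centred values did not pass. Scin and Vil1, genes of filament-severing proteins at low control levels of 3.71 and 5.21, rose by 1.14 and 0.83. These rises were 0.64 and 0.32 on loess-normalized values, and genes at control levels of 5 to 6, where Vil1 lies, changed by 0.81 at the median. The probe sets shared by Actb, Actg1 and Actg1l1 were near the highest deposited value, at 13.61 and 13.69 in shAMPKα2 cells and 13.75 and 13.82 in shCtrl cells. Their changes of -0.13 and -0.14 did not pass.

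Of 5 measured genes around serum response factor, which controls many actin genes, 1 rose, 3 fell and 1 did not pass, where 43.6% of all genes rose and 41.5% fell. Their median was -0.63, and that of their like-level medians was -0.74. On quantile-normalized values 2 rose and 2 fell, where 43.8% of all genes rose and 28.9% fell. On loess-normalized values 2 rose and 2 fell, where 40.2% of all genes rose and 31.5% fell. Mrtfa, an actin-sensing coactivator of serum response factor, changed by -1.07 (limma, adjusted p = 6.63e-07) and Fhl2, a cofactor, by -1.16. At control levels of 9 to 10, where Fhl2 lies, genes changed by -0.90 at the median, with a lower quartile of -1.45. At 7 to 8, where Mrtfa lies, the median was -0.39 and the lower quartile -0.95. Myocd, the smooth muscle coactivator gene, rose by 0.83 at a low control level of 4.23, where genes at levels of 4 to 5 had a median change of 0.79. On quantile-normalized values these changes were -0.69 for Mrtfa, -0.42 for Fhl2 and 0.37 for Myocd, and on loess-normalized values -0.71, -0.44 and 0.27, and all passed. Over all 6 lists together, 26 of 93 measured genes rose and 54 fell as deposited, where 43.6% of all genes rose and 41.5% fell. Their median was -0.48 and that of their like-level medians -0.63, and the median of each gene's change minus that of its level was -0.07. On quantile-normalized values 33 rose and 38 fell, where 43.8% of all genes rose and 28.9% fell. On loess-normalized values 31 rose and 41 fell, where 40.2% of all genes rose and 31.5% fell. Measured in whole cultures, less of a transcript in every cell and fewer cells that make it cannot be told apart.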

How the data were processed

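Biotin-labelled cRNA from total RNA of 6 cultures was hybridised to Affymetrix rat arrays, per the labels' protocols. The authors deposited log2 expression values, 1 per probe set and array. Background correction, probe summary and normalization are not given in the sources used here, and signal over background was not given for single probe sets, so precision is limited by the number of arrays. Of 31099 probe sets, 57 array controls were left out. Of the other 31042, 20826 were annotated to 1 gene, 436 to several and 9780 to none. RefSeq (GRCr8) matched 20758 by Entrez identifier and changed 0 symbols. The probe set with the highest mean stood for each of 14217 genes.

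The deposited values were fitted with lmFit and eBayes of limma 3.58.1 (R 4.3.3) and tested two-sided, with Benjamini-Hochberg adjustment over all genes (or over all probe sets, where a probe set is named) and a threshold of 0.05. The steps were tested on simulated data. The members, gene lists and markers were chosen with earlier results of these data known. From each list the text names up to 3 genes that rose and 3 that fell, those of largest deposited change that passed with the same sign on deposited, quantile-normalized and loess-normalized values. Members and their paralogs were named whether or not they passed. Alternatives were 3 other scalings, other probe set rules, filters on low levels, an intensity trend, leaving out each array, the replicate number as a block and array weights.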

Additional observations from a re-analysis of the deposited data

How the results depend on the processing

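Under 16 alternatives the number of members that rose was 2 or 3 and the number that fell was 4 to 6. The median change of the members, -0.74 as deposited, was -0.40 on quantile-normalized, -0.24 on loess-normalized and -0.95 on median-centred values, and -0.80 to -0.62 when 1 array was left out. Relative to genes of like control level the median was -0.18, and -0.40 with the level taken as the mean over all 6 arrays. The difference of the Arpc1b over Arpc1a ratio, -2.60, was -2.78 on quantile-normalized values, -2.79 on loess-normalized values, and -2.63 to -2.53 when 1 array was left out. Arpc3, Arpc1a, Actr2, Arpc2, Arpc5 and Pfn1 kept their direction and passed in all 16. The change of Arpc4, -0.07, turned to 0.46 on quantile-normalized values and 0.51 on loess-normalized values, that of Cfl2 to 0.16 and 0.19, and that of Cobl to -0.48 with the mean over probe sets and -1.97 with the most variable probe set. The cause of these turns was not tested, apart from the probe sets of Cobl, which differ in direction. Of all genes, 6199 were higher as deposited, 3317 without the lowest 25% of genes and 1188 without the lowest 50%, where fewer genes were tested. Leaving out 1 array gave 5905 to 6248 higher and 5641 to 5910 lower genes. No pairing by replicate number was seen: deviations from the group means correlated at -0.02, 0.01 and -0.10 between arrays of the same number. The labels do not say whether cultures of the same number were paired, and these correlations cannot show that they were not. With the replicate block, 2 members were higher and 5 lower, with 6173 higher and 5866 lower genes in all.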
